A study of Rattus norvegicus with 138 samples.

Results

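The caudal ventrolateral medulla (CVLM) of female spontaneously hypertensive rats (SHRs) was compared with that of female Wistar Kyoto (WKY) rats at 10 wk of age, an age that lies in the onset period of hypertension in the SHR. The 9 CVLM libraries whose names carry this age, 5 from SHRs and 4 from WKY rats, were taken from a series of 138 RNA-seq libraries that also covers the solitary tract nucleus (NTS), the rostral ventrolateral medulla (RVLM) and ages of 8, 12, 16 and 24 wk. Each library came from 1 untreated rat, from bilateral punches of 1 mm cut out of frozen brainstem sections, so each rat was killed at 1 age and gave 1 library for each region. The rats were the substrains SHR/NHsd and WKY/NHsd of 1 supplier, kept 1 to a cage. Both are inbred, and they differ by descent at many loci as well as in blood pressure, so a strain difference at 1 age cannot be told apart from an inherited difference that is unrelated to blood pressure. Rats are named below by strain and replicate number, and all levels are in CPM, counts scaled to a common library total and not by gene length.

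The CVLM is the inhibitory relay of the arterial baroreflex. Its GABA neurons are excited by the NTS, which receives the baroreceptor nerve endings, and they restrain the presympathetic neurons of the RVLM that drive vasomotor tone. The caudal ventrolateral column also holds the noradrenergic A1 cell group, and the adrenergic C1 group lies rostral to it. The punch takes in all cells of this column together with its glia, myelin and vessels, and in such bulk tissue fewer cells of a type and less RNA per cell cannot be told apart.

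The 9 libraries held 12060717 to 17088099 counts, with a median of 15176361, against 5904581 to 15419518 in the 37 CVLM libraries of the other ages. Of 32883 genes in the table, 13408 reached the study's floor for expression in the CVLM and were tested. No libraries of 1 strain were copies of each other, since the lowest chi-square per gene between replicates was 7.94. Both enzymes that make GABA were present in every rat. Gad1 was measured at 198 to 344 CPM with a median of 269, and Gad2 at 198 to 303 CPM with a median of 254. Slc6a5, the glycine transporter of inhibitory terminals, was at 156 to 236 CPM. Th, the first enzyme of catecholamine synthesis, had a median of 156 CPM in the CVLM, 157 in the NTS and 36.8 in the RVLM of the same rats. Dbh, which makes noradrenaline, had medians of 87.6, 84.2 and 6.02 CPM in the same order. Pnmt, which makes adrenaline and marks C1 neurons, had a median of 33.1 CPM in the CVLM, 2.70 in the NTS and 8.55 in the RVLM. The punches labelled CVLM therefore held more message of all 3 enzymes than those labelled RVLM, as a comparison of medians. For Pnmt this order runs against the region names, since the C1 group lies rostral in the ventrolateral column. The region names were kept as given, and whether they match the punched tissue was not tested.

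The summed markers of most cell types overlapped between the strains, and WKY 4 stood apart. Its serotonin neuron markers summed to 170.7 CPM against 17.4, 21.0 and 21.6 in the other WKY rats and 18.6 to 27.2 in the SHRs, with 120.0 CPM of Tph2, the serotonin-making enzyme. Its choroid plexus markers summed to 24.6 CPM against 2.01 to 5.02 in all other rats, and its noradrenergic and adrenergic markers to 167 CPM, the lowest of the 9. Tph2 was lower in SHRs by 2.47 on the log2 scale (edgeR quasi-likelihood adjusted p = 0.0112) and Slc6a4, the serotonin transporter, by 3.56 (adjusted p = 0.0427), yet without WKY 4 the log2 differences were 0.41 (adjusted p = 0.960) and 1.62 (adjusted p = 0.815). With replicate number as a block the adjusted p of Tph2 was 0.170 and that of Slc6a4 was 0.471, within ranges over all alternatives of 0.00110 to 0.960 and of 0.0140 to 0.815. Slc6a4 also lost its place without SHR 1, SHR 2, SHR 3 or SHR 5, at adjusted p between 0.0930 and 0.122. Red cell markers summed to 166 to 275 CPM in SHRs and 309 to 705 in WKY rats, without overlap. Leptomeningeal and fibroblast markers did not overlap either, at 238 to 312 CPM in SHRs and 315 to 362 in WKY rats. Astrocyte markers summed to 2422 to 2985 CPM in SHRs and 3853 to 4211 in WKY rats. S100b was the 1 member to pass the test, at a log2 difference of −1.18. The other members lay between −0.22 (Sox9) and 0.20 (Aqp4), so this gap is one of S100b and not of the marker list. SHR 1 and WKY 1 shared low Olig1, a factor of oligodendrocyte precursors, at 34.7 and 33.1 CPM, where the other 7 rats were at 91.5 to 187.

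**Figure D1:**
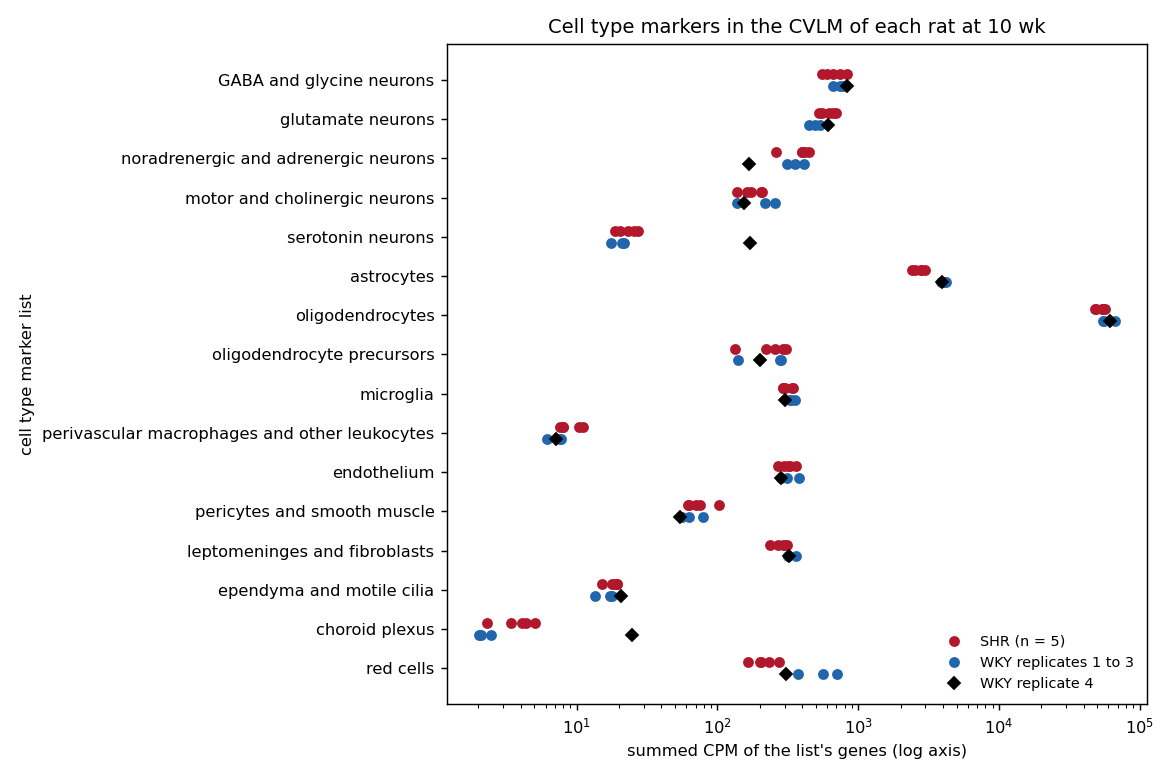
Summed CPM of the markers of each cell type (horizontal, log axis) in each rat at 10 wk, with SHRs in red, WKY replicates 1 to 3 in blue and WKY replicate 4 as a black diamond. WKY replicate 4 lies far to the right for serotonin neurons, at 170.7 CPM, and for choroid plexus, at 24.6 CPM. The sums of red cells, of astrocytes and of leptomeninges and fibroblasts separate the strains. Among the astrocyte markers S100b alone passed the test.

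At 10 wk the strain difference was carried by a small share of the transcriptome, in both directions. Of the 13408 genes, 158 met both limits for a call, an adjusted p no higher than 0.01 with a change of 2-fold or more, which is 1.18% of those tested. In SHRs 77 were higher (0.574%) and 81 lower (0.604%). At an adjusted p under 0.05 with no limit on fold there were 426 genes (3.18%), 198 higher (1.48%) and 228 lower (1.7%). In 398 genes every SHR lay above every WKY rat (2.97%) and in 506 every SHR lay below (3.77%). The median log2 difference over all genes was 0.00096, the median SE was 0.19, and 50.2% of genes were higher in SHRs. At an unadjusted p under 0.05 there were 1332 genes (9.93%). Leaving out WKY 4 gave 72 genes called higher and 79 called lower. Of the 158 called genes, 34 carry only a clone or accession style name, and in 4 the strains overlapped.

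**Figure D2:**
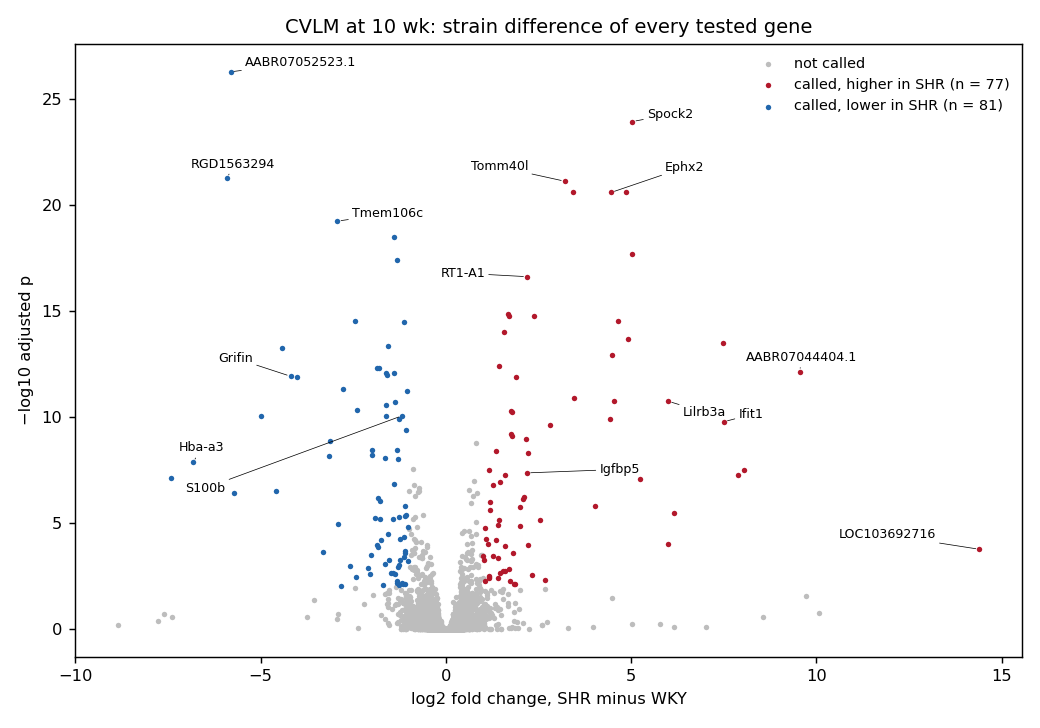
Log2 fold change, SHR minus WKY (horizontal), against the negative log10 of the adjusted p of the edgeR quasi-likelihood test (vertical) for all 13408 tested genes in the CVLM at 10 wk. Red points are the 77 genes called higher and blue points the 81 called lower in SHRs, with Spock2, Tomm40l and Ephx2 among the highest on the right and Tmem106c, RGD1563294 and AABR07052523.1 on the left.

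The largest rises were of genes with low levels in WKY rats, and a lack of overlap between the strains was a condition for choosing them and the largest falls. Ifit1, an interferon-induced protein that binds foreign RNA, was at 19.5, 14.4, 7.62, 10.7 and 18.0 CPM in the 5 SHRs and at 0, 0.0672, 0 and 0.196 CPM in the 4 WKY rats. The log2 difference was 7.51 (SE 0.70, adjusted p = 1.69e-10). Lilrb3a, an inhibitory receptor of leukocytes for class I molecules with close paralogs, averaged 7.07 ± 1.78 CPM in SHRs and 0.100 ± 0.160 in WKY rats (SD, n = 5 and 4), a log2 difference of 6.00 (SE 0.54). Spock2, a proteoglycan of the extracellular matrix, was at 252, 247, 279, 237 and 262 CPM in SHRs and at 8.60, 9.67, 5.72 and 7.17 CPM in WKY rats. This was the most secure rise among the symbols given here, at 5.04 on the log2 scale (SE 0.18, adjusted p = 1.17e-24). Ephx2 encodes soluble epoxide hydrolase, which breaks down vasodilator epoxides of arachidonic acid, and it lies among the candidate genes of blood pressure loci of the SHR. It was at 20.9, 23.1, 18.3, 21.5 and 18.7 CPM in SHRs and at 1.04, 0.604, 1.57 and 0.456 CPM in WKY rats, a log2 difference of 4.46 (SE 0.20, adjusted p = 2.59e-21). Of the 10 tested candidates of such loci, Ephx2 was the 1 that passed at an adjusted p under 0.05, beside 3.18% of all genes. A list of this size shows nothing particular by that count.

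Further large rises were of genes of unlike function. Ptprn2, a phosphatase-like protein of dense-core vesicles, was at 114, 118, 155, 156 and 138 CPM in SHRs and at 11, 17.5, 9.74 and 11.1 CPM in WKY rats (log2 difference 3.46, SE 0.30, adjusted p = 1.33e-11). Pxmp4, a membrane protein of peroxisomes, averaged 28.8 ± 2.78 CPM against 2.68 ± 0.71 (SD, n = 5 and 4). Tomm40l, a relative of the import channel of the outer mitochondrial membrane, averaged 51.1 ± 5.63 CPM against 5.51 ± 0.476. Pkp1, a desmosome protein, rose by 4.49 on the log2 scale, Apoa5, an apolipoprotein of triglyceride transport, by 4.54, and Tmem94, a transmembrane protein, by 4.65, with WKY means of 0.389, 0.298 and 1.09 CPM. Pbld1 rose by 2.38, and Cd4, a surface receptor of helper T cells that rat macrophages also carry, rose from 0.791 ± 0.0892 to 3.77 ± 1.3 CPM.

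**Figure D3:**
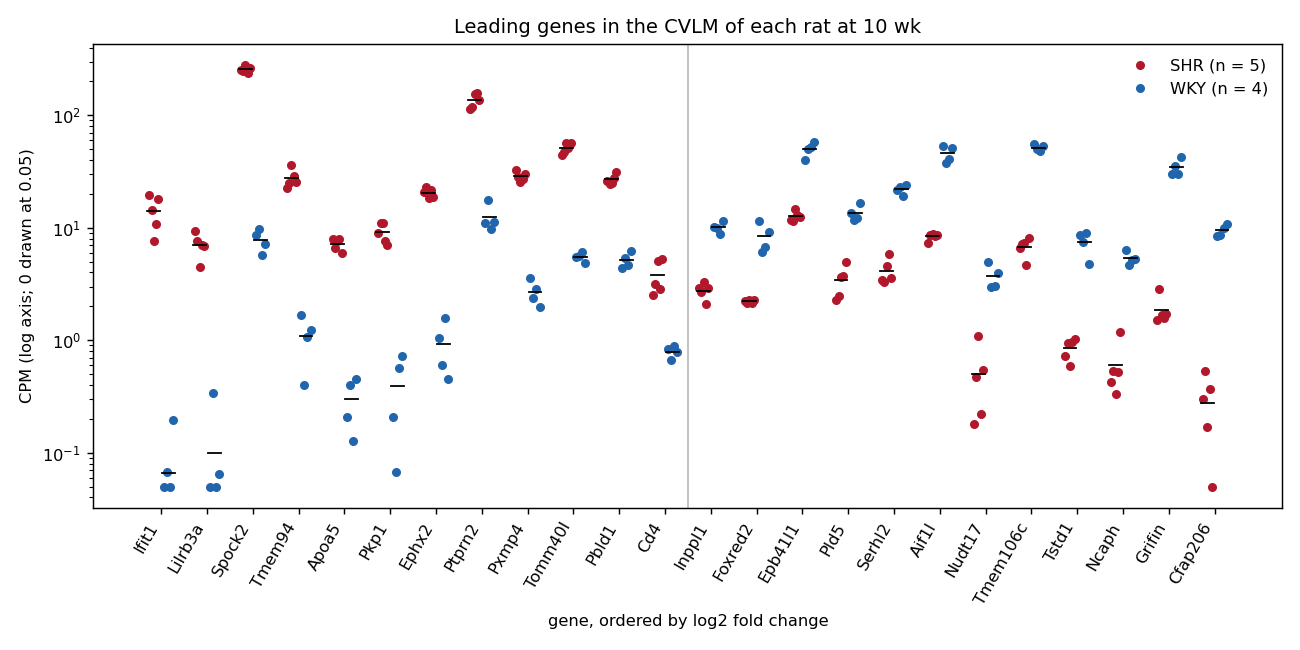
CPM on a log axis (0 drawn at 0.05) of the 12 genes with the largest rise (left of the grey line) and the 12 with the largest fall (right) in each rat, with SHRs in red (n = 5), WKY rats in blue (n = 4) and bars at the means. All 24 genes were chosen for points that do not overlap, and the gap is wide for Spock2, at 237 to 279 CPM against 5.72 to 9.67.

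The largest falls were also of genes of unlike function. Cfap206, an axoneme protein of motile cilia, averaged 0.275 CPM in SHRs and 9.45 ± 1.20 in WKY rats (log2 difference −5.0, SE 0.47). The summed markers of ependyma and motile cilia overlapped, at 15.1 to 19.4 CPM in SHRs and 13.4 to 20.6 in WKY rats. Grifin, a galectin-related protein known from the lens, averaged 1.87 against 34.4 ± 5.94 CPM (log2 difference −4.19). Ncaph, a condensin subunit, fell by 3.16 and Tstd1, a thiosulfate sulfurtransferase relative, by 3.12 on the log2 scale. Tmem106c, a membrane protein, was at 6.54, 7.16, 7.28, 4.68 and 8.12 CPM in SHRs and at 55.1, 49.7, 47.8 and 52.9 CPM in WKY rats. The log2 difference was −2.93 (SE 0.14, adjusted p = 5.80e-20). Aif1l, an actin-binding relative of the microglial protein Aif1, averaged 8.36 ± 0.587 against 45.9 ± 7.76 CPM (log2 difference −2.46), while Aif1 itself was at 15.9 to 26.1 CPM in SHRs and 18.5 to 24.6 in WKY rats (log2 difference −0.11, adjusted p = 1). Epb41l1, a cytoskeletal anchor of neuronal membranes, averaged 12.6 against 49.8 CPM. Nudt17, Serhl2, Pld5, Foxred2 and Inppl1 fell by 2.91, 2.41, 1.99, 1.92 and 1.86 on the log2 scale. Inppl1, a lipid phosphatase that opposes insulin signalling, fell together with Insr, the insulin receptor.

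Transcripts without a gene name were among the extremes. AABR07052523.1 averaged 9.49 ± 2.28 CPM in SHRs and 536 ± 13.5 in WKY rats (log2 difference −5.81, adjusted p = 5.29e-27), RGD1563294 averaged 3.54 against 212 CPM, and LOC100909441 fell by 5.71. AABR07064061.1 averaged 46.2 CPM in SHRs and 0.246 in WKY rats. AABR07044404.1 averaged 8.64 CPM in SHRs and had no count in any WKY rat, which makes it at least 41.5-fold higher against a floor of 3 counts per library. In 7 called genes 1 strain had no count at all, and intervals and floors of this kind cover counting error only.

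LOC103692716 had the largest log2 difference of all called genes, 14.4, and it moved with a feature of the library names. It was at 167, 157, 375, 223 and 322 CPM in the SHRs and had no count in the 4 WKY rats, at least 1196-fold higher against the same floor. All libraries of 10 wk have names that end in 2, a label whose meaning is not given. Over all ages, 7 of 7 WKY libraries of the CVLM with this ending had no count, whereas among the 11 WKY libraries that end in 1 only 1 had none, and their median was 307 CPM. In SHRs the 7 libraries that end in 2 had a median of 223 CPM and the 21 that end in 1 a median of 644. The ending is the same in both strains at 10 wk, so within this age its part cannot be seen. The 7 WKY libraries that end in 2 include 3 of 8 wk, so the lack of counts followed the ending beyond 10 wk. What the ending stands for was not tested. With a block of replicate number within each age its adjusted p was 0.0918, in a range of 1.50e-69 to 0.0918 over all alternatives.

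Genes of antigen presentation moved in both directions. Class I molecules show peptides cut by the immunoproteasome to T cells, and tapasin loads these peptides. Class II molecules are the display of professional antigen-presenting cells. Of 25 tested genes, 6 were higher and 3 lower at an adjusted p under 0.05, beside 3.18% of all genes. The median log2 difference was 0.027, beside 0.00096 over all genes. RT1-A1, a classical class I gene, was at 118, 124, 93.9, 104 and 111 CPM in SHRs and at 24.6, 29.2, 20.2 and 22.4 CPM in WKY rats (log2 difference 2.19, SE 0.13, adjusted p = 2.43e-17). RT1-A2, its neighbour, was at 2.97, 4.08, 2.34, 1.26 and 3.20 CPM in SHRs and at 9.92, 7.59, 9.55 and 12.3 CPM in WKY rats (log2 difference −1.82, SE 0.25, adjusted p = 6.94e-07). The 2 genes separated the strains in opposite directions. RT1 genes are near-identical copies that differ between inbred strains, and reads were assigned with 1 reference genome, so the split of reads among them is uncertain. The nonclassical RT1-N2 and RT1-CE7 were lower by 1.64 and 0.80 on the log2 scale. Among class II genes, RT1-DOb was at 2.72, 2.61, 2.43, 2.6 and 1.02 CPM in SHRs and at 0.139, 0.0672, 0 and 0 CPM in WKY rats. RT1-Db1 averaged 1.12 against 0.167 CPM (log2 difference 2.68, adjusted p = 0.00504) with SHR 4 at 0. With 10 wk fitted alone in edgeR, RT1-Db1 did not pass (adjusted p = 0.108), nor did RT1-CE7 (0.0585).

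The promoters of 4 of these genes are shown because Psmb8 and Tapbp rose while the 2 class I copies moved apart. The sequences are from RefSeq on the build GRCr8, which differs from the rn6 build used for the counts, and run from 250 bases before to 50 after the start of the gene on its own strand. In the class I genes the first run of capitals is the kappaB element and the second the interferon element known from such promoters. In the other 2 genes capitals mark the core of an interferon-stimulated response element on either strand, which is GAAA, any 2 bases and GAAA again. In Tapbp a further core overlaps the end of the capitals and runs on in small letters.
RT1-A1, chr20:4906959-4907258, plus strand: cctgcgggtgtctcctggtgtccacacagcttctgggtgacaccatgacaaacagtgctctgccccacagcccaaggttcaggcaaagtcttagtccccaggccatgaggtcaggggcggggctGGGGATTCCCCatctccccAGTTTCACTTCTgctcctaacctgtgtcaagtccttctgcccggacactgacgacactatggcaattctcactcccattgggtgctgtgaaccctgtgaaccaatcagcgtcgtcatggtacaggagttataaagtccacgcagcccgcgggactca
RT1-A2, chr20:4872621-4872920, plus strand: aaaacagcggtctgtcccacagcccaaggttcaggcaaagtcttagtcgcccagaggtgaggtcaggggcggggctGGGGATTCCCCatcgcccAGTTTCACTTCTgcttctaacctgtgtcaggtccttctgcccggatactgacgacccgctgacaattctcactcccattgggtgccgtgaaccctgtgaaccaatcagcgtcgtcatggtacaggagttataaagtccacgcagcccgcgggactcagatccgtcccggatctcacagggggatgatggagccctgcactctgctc
Psmb8, chr20:4656982-4657281, minus strand: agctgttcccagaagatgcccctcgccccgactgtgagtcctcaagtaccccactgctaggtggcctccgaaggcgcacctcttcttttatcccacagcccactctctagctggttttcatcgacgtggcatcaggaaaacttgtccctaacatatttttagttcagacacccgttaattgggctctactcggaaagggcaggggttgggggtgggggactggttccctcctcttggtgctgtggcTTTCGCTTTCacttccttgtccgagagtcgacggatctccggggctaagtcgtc
Tapbp, chr20:4967828-4968127, minus strand: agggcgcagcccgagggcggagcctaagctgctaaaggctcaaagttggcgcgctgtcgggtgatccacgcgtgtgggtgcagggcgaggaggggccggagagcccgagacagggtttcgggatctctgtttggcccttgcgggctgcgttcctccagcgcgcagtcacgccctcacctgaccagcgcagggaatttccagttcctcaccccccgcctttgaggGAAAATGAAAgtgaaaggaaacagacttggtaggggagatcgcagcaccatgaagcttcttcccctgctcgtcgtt
Both class I promoters hold both elements in these letters, and they stand in 0.0627% and 0.0359% of the 33469 promoters searched on both strands. Where the 2 windows align, over 252 columns, 232 are identical (92.1%). The core is in 3.92% of all promoters, in 7 of the 22 antigen presentation genes with a promoter and in 14 of the 22 interferon genes with one. Besides Psmb8 and Tapbp, the 7 are B2m, RT1-N3, RT1-S3, Tap1 and Tap2. These had log2 differences of −0.07, −0.81, −0.10, 0.20 and 1.33, and none passed in edgeR. A link between the core and the strain difference was not tested. Psmb8, a catalytic subunit of the immunoproteasome, was at 10.6, 10.8, 8.46, 6.84 and 8.67 CPM in SHRs and at 5.82, 4.30, 5.09 and 4.56 CPM in WKY rats (log2 difference 0.88, SE 0.18, adjusted p = 9.73e-04). Tapbp, which encodes tapasin, was at 34.3, 36.9, 43.9, 35.1 and 37.0 CPM in SHRs and at 19.5, 21.8, 15.1 and 15.1 CPM in WKY rats (log2 difference 1.07, SE 0.17, adjusted p = 1.74e-05). In both genes the lowest SHR was above the highest WKY rat.

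Ifit1 was the 1 of 28 tested interferon response genes to pass, with 7 at an unadjusted p under 0.05 and a median log2 difference of 0.157 over the list, beside 3.18% and 9.93% of all genes at these limits. Irf7, the regulator that amplifies interferon genes, had a difference of 0.86 and Mx1, an antiviral GTPase, of 0.71, without passing. Nlrx1, a mitochondrial member of the NOD-like receptors, had 0.31 (adjusted p = 0.376).

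Of 23 complement genes 2 were higher and 2 lower at an adjusted p under 0.05, beside 3.18% of all genes. The list median was 0.00246. C2, a serine protease of the classical and lectin pathways, was at 12.4, 14.4, 10.5, 14.1 and 9.29 CPM in SHRs and at 6.79, 5.91, 4.08 and 6.84 CPM in WKY rats (log2 difference 1.04, SE 0.20, adjusted p = 5.87e-04). Cfb, the matching protease of the alternative pathway, was at 0.242, 3.34, 3.18, 1.19 and 4.53 CPM in SHRs and at 0, 0.403, 0 and 0 CPM in WKY rats. Its log2 difference was 4.49 (SE 1.25, adjusted p = 0.0343), with overlap between SHR 1 and WKY 2. Another tested entry under the symbol Cfb, also counted in the list, had a difference of 0.43 (SE 0.30, adjusted p = 0.830). The rise therefore holds for 1 entry of Cfb and not for both. For the entry that rose, the adjusted p was 0.0575 with the replicate block, in a range of 0.00226 to 0.136 over all alternatives. Without SHR 2, SHR 3, SHR 5, WKY 1, WKY 3 or WKY 4 it was 0.0600 to 0.129. C1r and C1s, the proteases of the first complement component, were lower by 0.61 (SE 0.16, adjusted p = 0.0145) and 0.74 (SE 0.19, adjusted p = 0.0181) on the log2 scale. C1r was at 7.28 to 10.2 CPM in SHRs and 11.1 to 15.7 in WKY rats, and C1s at 5.27 to 9.03 and 10.9 to 15.4. C1r did not pass without SHR 1, SHR 3 or WKY 3 (adjusted p 0.0512 to 0.105), nor C1s without SHR 3, SHR 4 or WKY 2 (0.0532 to 0.0960).

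Hemoglobin genes were lower in SHRs, 4 of the 7 tested genes of oxygen binding and none higher. This stands beside 3.18% of all genes at an adjusted p under 0.05, and the list median was −0.986. Hba-a1, an alpha chain, was at 78.7, 63.9, 71.2, 49.2 and 58.0 CPM in SHRs and at 132, 194, 262 and 98.9 CPM in WKY rats (log2 difference −1.42, SE 0.30, adjusted p = 0.00226). Hba-a2 was lower by 1.37 (adjusted p = 0.00249). Hbb, the beta chain, was at 164, 115, 126, 93.3 and 115 CPM in SHRs and at 194, 283, 333 and 161 CPM in WKY rats, overlapping at SHR 1 and WKY 4 (log2 difference −0.99, SE 0.27, adjusted p = 0.0267). Hbb did not pass without SHR 2, SHR 3, SHR 4, SHR 5, WKY 2 or WKY 3, at adjusted p of 0.0520 to 0.182. Hba-a3 had no count in any SHR and 1.25, 1.81, 1.51 and 0.587 CPM in WKY rats, at least 5.13-fold lower against the floor of 3 counts per library. With a block of replicate number within each age, an alternative added after seeing the data, Hba-a1 had an adjusted p of 0.0796, Hba-a2 of 0.0668 and Hbb of 0.208, so they did not pass, while Hba-a3 did. Over all alternatives the adjusted p ranged from 8.02e-05 to 0.0796 for Hba-a1, from 1.09e-04 to 0.0668 for Hba-a2 and from 0.00729 to 0.208 for Hbb. Alpha globin genes are near-copies, so their split is uncertain too. The red cell sums given above moved with these genes, as they share Hba-a1, Hba-a2 and Hbb, and the part of blood left in the tissue was not tested.

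In the insulin-like growth factor system 1 gene rose and 2 fell of 13 tested, beside 3.18% of all genes at an adjusted p under 0.05. The list median was −0.0362. Igfbp5, a secreted binding protein that holds the growth factor in the matrix, was at 74.3, 92.2, 105, 95.3 and 50.6 CPM in SHRs and at 15.9, 21.5, 23.0 and 12.4 CPM in WKY rats. All SHRs were above all WKY rats, with a log2 difference of 2.19 (SE 0.26, adjusted p = 4.36e-08). Insr was at 3.93, 4.95, 4.19, 6.09 and 5.39 CPM in SHRs and at 17.3, 15.2, 15.6 and 12.8 CPM in WKY rats (log2 difference −1.63, SE 0.18, adjusted p = 9.08e-09). Igfbp4, another binding protein, averaged 0.877 ± 0.162 CPM against 2.07 ± 0.304 (log2 difference −1.23, adjusted p = 0.0428). Its adjusted p was 0.0649 with the replicate block and 0.0601 to 0.151 when any 1 of the 9 rats was left out, in a range of 0.0167 to 0.151 over all alternatives.

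Of 34 genes of oxidative stress and glutathione, 3 rose and 1 fell at an adjusted p under 0.05, beside 3.18% of all genes. The list median was −0.0435. Besides Ephx2, the glutathione transferase Gstt3 averaged 87.4 ± 4.5 CPM against 57.2 ± 2.88 (log2 difference 0.61, SE 0.08, adjusted p = 2.68e-07). Cat, which encodes catalase, averaged 212 ± 10.2 CPM against 157 ± 11.8 (log2 difference 0.43, SE 0.07, adjusted p = 3.01e-05). Gstm2 fell by 0.64 (adjusted p = 0.0272) but did not pass without SHR 4, SHR 5, WKY 1, WKY 2 or WKY 3 (0.0708 to 0.123). Of 40 collagen and matrix genes 4 were lower and none higher, beside the same 3.18% of all genes. The list median was −0.110. Fn1, fibronectin, averaged 9.70 ± 0.874 CPM against 20.9 ± 2.72 (log2 difference −1.11, SE 0.16, adjusted p = 4.72e-06), and Col16a1 7.90 ± 1.13 against 15.6 ± 3.32 (log2 difference −0.98, adjusted p = 0.00123). Fmod, a collagen-binding proteoglycan that is also a leptomeningeal marker, fell by 1.08 (adjusted p = 0.0313), and not without SHR 1, SHR 2, SHR 3, SHR 5, WKY 1 or WKY 2 (0.0552 to 0.181). Col5a3 fell by 0.71 (adjusted p = 0.0463), at 0.0516 with the replicate block and 0.0591 to 0.177 when any 1 rat was left out, in a range of 0.0185 to 0.177. Leptomeningeal and fibroblast markers summed to 238 to 312 CPM in SHRs and 315 to 362 in WKY rats, without overlap. The part of these cells in the matrix genes was not tested.

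No gene of inhibitory or catecholamine transmission, the work of the CVLM, passed in edgeR, but with a background of 3.18% of all genes at an adjusted p under 0.05, and 9.93% at an unadjusted one, lists of this size show nothing particular by that. None of 27 GABA and glycine genes passed in edgeR, with 3 at an unadjusted p under 0.05 and 1, Abat, by DESeq2, and the list median was 0.101. Abat, the transaminase that degrades GABA, was at 95.5, 92.2, 92.2, 88.9 and 92.8 CPM in SHRs and at 132, 116, 124 and 134 CPM in WKY rats. The strains did not overlap, the log2 difference was −0.46, and the adjusted p was 0.0567, or 0.0313 with the replicate block, in a range of 0.00116 to 0.167 over all alternatives. Glra2, a glycine receptor subunit, had a difference of 0.57 (adjusted p = 0.154) and Gad1 one of −0.24 (adjusted p = 0.745). None of 19 catecholamine genes passed in edgeR or DESeq2, and 3 had an unadjusted p under 0.05, Th at 0.54, Maoa at 0.24 and Ddc at −0.32 on the log2 scale. None of 14 acetylcholine genes passed in either tool, with 1 at an unadjusted p under 0.05, and Chat, Slc18a3 and Slc5a7, which make, package and recover acetylcholine, had differences of −0.47, −0.45 and −0.05. The nicotinic subunit Chrna3 had 0.23. None of 18 genes of the renin-angiotensin, endothelin and nitric oxide systems passed in either tool, with 5 at an unadjusted p under 0.05. The list medians of these 3 groups were 0.102, 0.0267 and 0.0211. Without WKY 4, with its low catecholamine markers, Th had a difference of 0.29 (adjusted p = 0.923) and Slc6a2, the noradrenaline transporter, 0.07 in place of 0.40.

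Among 31 glutamate genes 1 passed, beside 3.18% of all genes at an adjusted p under 0.05. Cacng5, an auxiliary subunit of AMPA receptors, was at 3.15, 3.14, 4.02, 3.49 and 3.83 CPM in SHRs and at 9.01, 8.73, 10.2 and 1.56 CPM in WKY rats (log2 difference −1.06, SE 0.30, adjusted p = 0.0394). WKY 4 lay below all SHRs, and without it the difference was −1.40 (adjusted p = 1.98e-04). Without any 1 of the other 8 rats the adjusted p was 0.0552 to 0.224. Grik1, a kainate receptor subunit, had a difference of 0.02. Of 44 sodium and potassium channel genes 1 passed, Kcnip3, a calcium sensor that modulates A-type potassium channels and also represses transcription. It was at 15.2, 16.9, 15.8, 15.2 and 13.8 CPM in SHRs and at 41.6, 35.7, 37.3 and 38.8 CPM in WKY rats (log2 difference −1.32, SE 0.14, adjusted p = 3.50e-09). Its relative Kcnip2 had 0.29, or 0.87 (adjusted p = 0.870) without WKY 4, and the channel subunit Kcne5 0.81 (adjusted p = 0.0665, and 0.0234 without SHR 5). None of 25 calcium channel and store genes passed in either tool, with 1 at an unadjusted p under 0.05.

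Of 52 neuropeptide and receptor genes 3 were lower at an adjusted p under 0.05, beside 3.18% of all genes in either direction. The list median was −0.0185. Hcrtr1, the orexin 1 receptor, was at 6.41, 6.69, 6.53, 6.02 and 6.87 CPM in SHRs and at 14.1, 13.0, 12.3 and 7.63 CPM in WKY rats (log2 difference −0.85, SE 0.18, adjusted p = 0.00162). Ramp1, a subunit of the calcitonin gene-related peptide receptor, was at 34.4, 38.7, 29.6, 28.0 and 34.4 CPM in SHRs and at 59.0, 48.4, 58.7 and 47.2 CPM in WKY rats (log2 difference −0.69, SE 0.20, adjusted p = 0.0376). The strains did not overlap in these 2 genes. For Ramp1 the adjusted p was 0.0588 with the replicate block and 0.0609 to 0.137 without SHR 1, SHR 3, SHR 4, SHR 5, WKY 1 or WKY 3, in a range of 0.00270 to 0.137. Vip, vasoactive intestinal peptide, was at 0.726, 1.14, 0.837, 1.41 and 1.09 CPM in SHRs and at 3.54, 1.95, 1.89 and 8.99 CPM in WKY rats (log2 difference −1.97, SE 0.53, adjusted p = 0.0243). Without WKY 4 the difference of Vip was −1.23 (adjusted p = 0.401), with the block the adjusted p was 0.0581, and without SHR 1, SHR 3 or SHR 5 it was 0.0507 to 0.0744, in a range of 0.0116 to 0.401. Tac1, which encodes substance P, had a difference of −0.29 (adjusted p = 0.590).

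**Figure D4:**
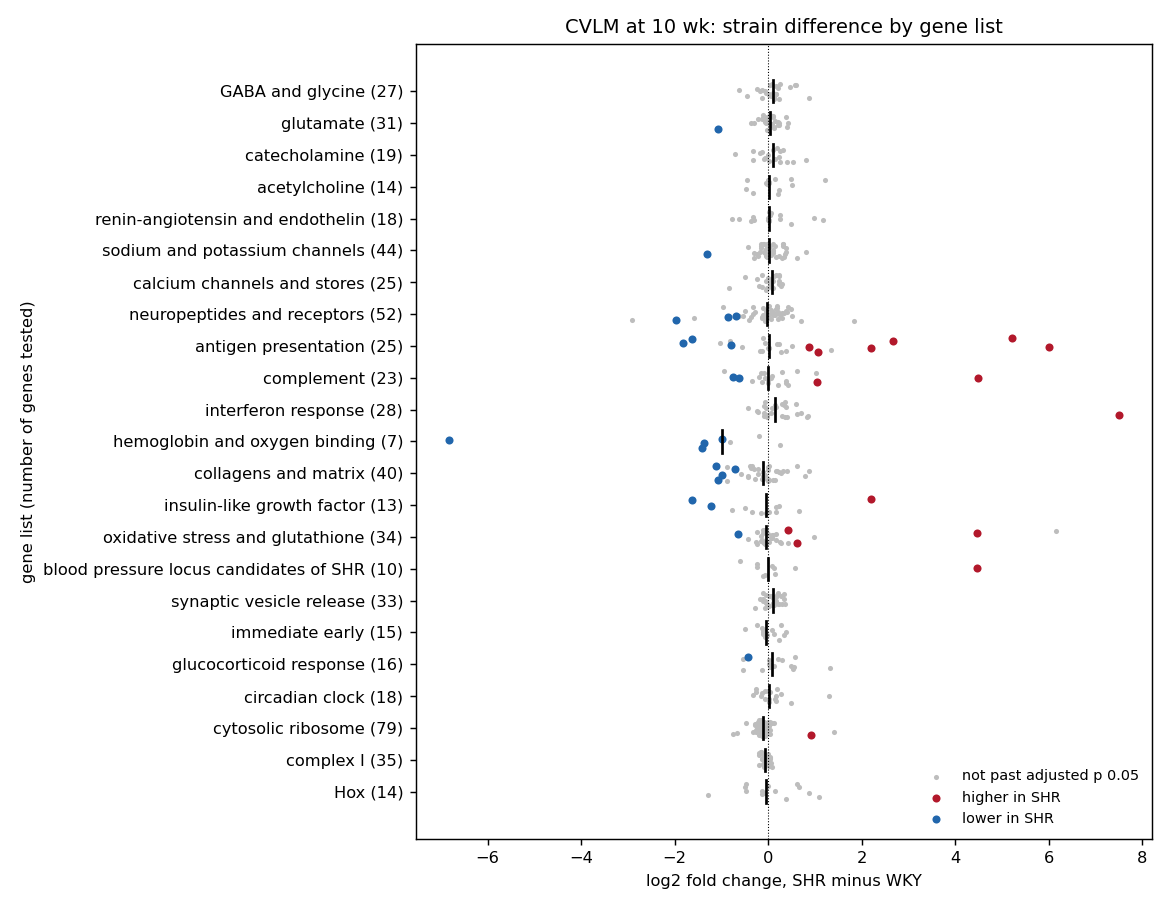
Log2 fold change, SHR minus WKY (horizontal), of each tested gene in 23 gene lists (vertical, number tested in parentheses), in grey where the adjusted p was not under 0.05, red where higher and blue where lower, with a bar at the list median. Most medians lie near 0, the hemoglobin median lies at −0.986, and antigen presentation has 6 red and 3 blue points.

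Among glial and myelin genes, S100b and Mobp were called lower, beside calls in 1.18% of all genes. S100b, a calcium-binding protein of astrocytes, averaged 1108 ± 95.0 CPM in SHRs and 2517 ± 123 in WKY rats (log2 difference −1.18, SE 0.11, adjusted p = 8.81e-11), and it was the 1 of 8 astrocyte markers to pass. Mobp, a structural protein of central myelin, was at 294, 322, 299, 282 and 310 CPM in SHRs and at 818, 589, 723 and 752 CPM in WKY rats (log2 difference −1.26, SE 0.12, adjusted p = 1.28e-10). Cnp, another myelin protein, fell by 0.39 (adjusted p = 9.01e-04), and the remaining 8 of 10 oligodendrocyte markers did not pass. Of all genes, 3.18% passed at an adjusted p under 0.05 and 9.93% at an unadjusted one. At the unadjusted limit 4 oligodendrocyte markers were lower and 1 was higher, Cldn11 by 0.41 (adjusted p = 0.0821). Oligodendrocyte sums overlapped, at 48158 to 56988 CPM in SHRs and 54854 to 66628 in WKY rats. Itgb2, an integrin of leukocytes and microglia, was the 1 of 13 microglial markers to pass, lower by 0.76 (adjusted p = 0.00411) with WKY 3 at 7.35 CPM beside SHR 4 at 7.43. At an unadjusted p under 0.05, 2 microglial markers were lower and 1 was higher, Itgam by 0.78 (adjusted p = 0.469). Microglial sums were 293 to 342 CPM in SHRs and 302 to 356 in WKY rats. Kl, the klotho gene, was the 1 of 3 tested choroid plexus markers to pass, higher by 1.99 (adjusted p = 0.0145). It was at 1.25 to 2.27 CPM in SHRs, 0.189 to 0.269 in WKY 1 to WKY 3 and 0.978 in WKY 4. Kl did not pass without WKY 1, WKY 2 or WKY 3 (0.0672 to 0.0850). The other choroid plexus markers, Ttr and Prlr, were lower in SHRs without passing, and the list median was −0.265. Ttr had an unadjusted p under 0.05 (adjusted p = 0.277), and without WKY 4 its difference was positive, at 2.67.

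The general cellular lists held few differences, beside 3.18% of all genes at an adjusted p under 0.05. Of 79 cytosolic ribosome genes Rpl30 alone was higher, by 0.92 (adjusted p = 0.0120), and not without WKY 1 or WKY 2 (0.0828 and 0.0533), and ribosomal protein genes have processed copies that make their counts uncertain. Of 16 glucocorticoid response genes Hsd11b1, which regenerates active corticosterone, was lower by 0.43 (adjusted p = 0.0399), and not without SHR 3, SHR 4, SHR 5 or any WKY rat (0.0582 to 0.135). Sgk1, a kinase induced by glucocorticoids, had a difference of 1.33 (adjusted p = 0.105) and passed by DESeq2. No gene passed in edgeR or DESeq2 among 33 of synaptic vesicle release, 15 immediate early genes, 18 clock genes, 35 of complex I and 14 Hox genes, where 1, 1, 2, 0 and 3 had an unadjusted p under 0.05, beside 9.93% of all genes.

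Most of the called genes were also called at other ages of the CVLM, in rats killed at those ages. Of the 158 genes, 86 were called with the same sign at all 4 other ages, 23 at 3, 18 at 2, 19 at 1 and 12 at none, and 154 had the same sign at every age. The background of calls was 1.41%, 0.992%, 0.999% and 1.08% of the tested genes in the order of these ages. The 128 genes also called at 8 wk were 81% of those of 10 wk and 67.7% of the 189 of 8 wk, and the 112 also called at 24 wk were 70.9% and 77.2% of the 145 of 24 wk. The difference of Spock2 was 4.49, 4.52, 3.99 and 4.24 at 8, 12, 16 and 24 wk, that of Igfbp5 was 2.13, 1.31, 1.54 and 1.75, and that of Kcnip3 was −1.18, −1.03, −1.23 and −0.73. Hba-a1 had −0.37 at 8 wk (adjusted p = 0.461) and −1.04, −1.39 and −1.44 at the later ages. Inppl1 had −1.39, −1.15, −1.27 and −0.70, beside −1.86 at 10 wk.

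The 12 genes called at no other age were named after their values were seen. Lower in SHRs were Ighm, the heavy chain of immunoglobulin M (−2.06), AC117330.1 (−2.02), Kcne2, a potassium channel subunit (−1.31), Dhx16, a splicing helicase (−1.23), Fubp3 (−1.06) and Traf6, an adaptor of innate immune receptors (−1.02). Higher were LOC100365958 (1.05), AABR07000747.1 (1.15), Frrs1 (1.73), Tnfrsf8, the CD30 receptor of lymphocytes (1.87), Cd84, a leukocyte receptor (2.34), and LOC103692716. When the difference at 10 wk was tested against the mean of the other 4 ages, no gene passed (0%) in edgeR, 382 genes (2.85%) had an unadjusted p under 0.05, and DESeq2 gave 6. None of these 12 genes can therefore be called particular to 10 wk.

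**Figure D5:**
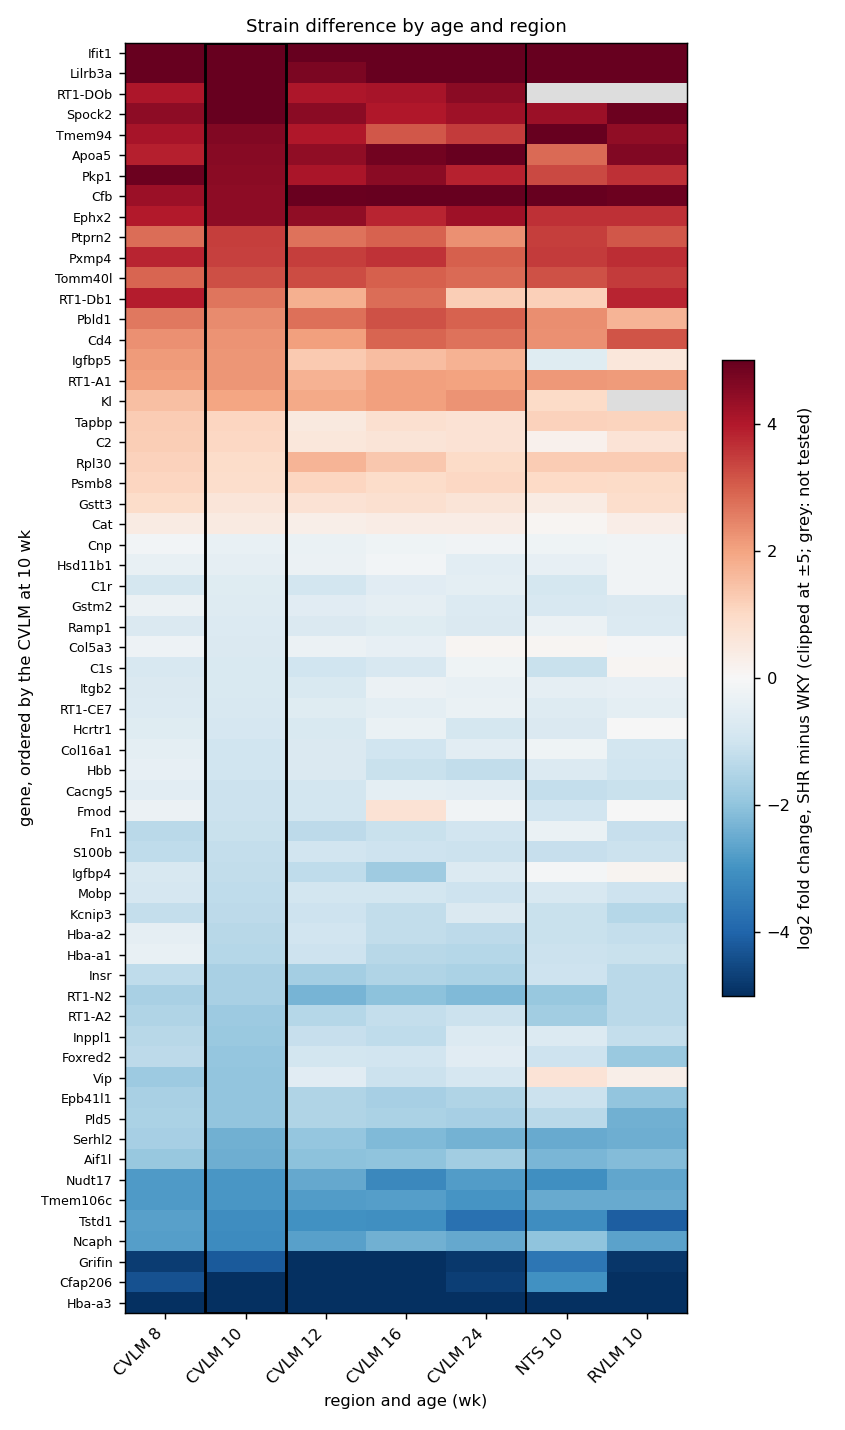
Log2 fold change, SHR minus WKY (colour, clipped at 5 in either direction, grey where not tested), of the named genes in the CVLM at each age and in the NTS and RVLM at 10 wk. The framed column is the CVLM at 10 wk, and most rows keep their colour across the columns, whereas Igfbp5 is red in the CVLM, at 2.19, and near white in the NTS, at −0.60, and RVLM, at 0.55.

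Regions of the same rats gave a similar picture. Of the 158 genes, 94 were also called in both the NTS and the RVLM at 10 wk with the same sign, 34 in 1 of them and 30 in neither, and 72 were called in the CVLM at all ages and in all regions at 10 wk. The background was 1.25% in the NTS and 1.16% in the RVLM. The NTS shared 109 genes, 69% of those of the CVLM and 63.4% of its own 172, and the RVLM shared 113, 71.5% and 72.9% of its own 155. These comparisons share rats, though not libraries. RT1-A1 had differences of 2.17 in the NTS and 2.14 in the RVLM, S100b −1.17 and −1.09, and Ifit1 7.60 and 7.36. Igfbp5 had −0.60 (adjusted p = 0.628) in the NTS and 0.55 (adjusted p = 0.733) in the RVLM, yet the test of the strain difference between regions did not reach the threshold, at 2.82 for CVLM minus NTS (adjusted p = 0.240) and 1.64 for CVLM minus RVLM (adjusted p = 1).

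In the tests of the strain difference between regions, with the rat as a block, 1 gene differed between the CVLM and the NTS (0.00712%) and none between the CVLM and the RVLM (0%) in edgeR. For the NTS 1453 genes (10.3%) had an unadjusted p under 0.05 and DESeq2 gave 37, and for the RVLM 510 genes (3.63%) had one and DESeq2 gave 4. The gene was Terf2ip, a protein of the telomere complex. In the CVLM it averaged 114 ± 4.58 CPM in SHRs and 118 ± 7.59 in WKY rats (log2 difference −0.05), in the NTS 128 ± 7.82 and 242 ± 37.0 (−0.92, adjusted p = 2.43e-09), and in the RVLM 103 ± 11.9 and 112 ± 4.89 (−0.12). The difference between the CVLM and the NTS was 0.86 on the log2 scale (adjusted p = 0.00221).

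Called genes sat beside each other in a few places of the genome. By the gene order of GRCr8, 12024 of the 13408 tested genes and 120 of the 158 called genes could be placed, and 11 called genes (9.17%) were next to another called gene, against 228 of the genes that were not called (1.92%). These included Hba-a3, Hba-a2 and Hba-a1, all lower, Nr1i3 and Tomm40l, both higher, RT1-Db1 and RT1-DOb, both higher, and RT1-A2 and RT1-A1, 1 lower and 1 higher.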

How the data were processed

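RNA of brainstem punches was sequenced by the supplier of the libraries, and the authors aligned the reads to rn6 with STAR inside RSEM at default settings. The deposited values are expected counts per gene, 1 table for each region, and 4.95% of the CVLM values were not whole numbers. The study's methods name ComBat_seq for batch adjustment, and whether the deposited tables carry it is not given in the sources used here. Here the expected counts were rounded. Genes were kept where the largest rlog value reached 3.5, the study's floor. All 46 CVLM libraries were fitted as 10 groups of strain and age with edgeR 4.0.16 (TMM scaling, robust quasi-likelihood test, R 4.3.3), and SHR minus WKY at 10 wk was the contrast, with Benjamini-Hochberg adjustment over all tested genes. A call needs an adjusted p of at most 0.01 and a fold of at least 2. SE is the log2 difference divided by the square root of the test's F.

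The same fit gave the other ages and the test of 10 wk against their mean. The 27 libraries of 10 wk, with rat as a block, gave the tests between regions. Named genes were the 12 largest rises and falls among called genes with a symbol, at least 50 counts and no overlap, the 3 largest each way among accession style names, list members at an adjusted p under 0.05, genes passing the difference tests, genes the study names for the CVLM, and region markers. Members and lists were chosen with earlier results of these data known. Same-numbered rats of both strains deviated together, with correlations of 0.442, 0.178, 0.190 and 0.137 over 13408 genes. The highest correlations of the same SHRs with a WKY rat of another number were 0.0565, 0.164, 0.0134 and −0.0139. The numbers were therefore taken to pair the libraries, though for number 2 this is hardly shown. The main test does not use the pairing. The replicate block joins a number over all ages, and the block within each age keeps the ages apart. Whether rats of a group shared a litter or batch is not given, so p-values measure the spread between these rats. Alternatives were DESeq2 1.42.0, its size factors, no filter, 10 wk alone, replicate blocks, libraries left out by label and each rat left out. In the CVLM 2 libraries titled 8 wk carry an age label of 10 weeks and were kept at 8 wk. The steps were tested on simulated data.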

Additional observations from a re-analysis of the deposited data

Results flagged for a closer look

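In 172 groups of 4 or 5 rats, 18 had a highest or lowest rat whose gap to the others passed Dixon's critical value, where chance marks about 5% of groups, and 6 of the 18 were WKY 4. In WKY 4 the serotonin neuron sum was 170.7 CPM (others 17.4 to 21.6), Tph2 120.0 CPM (2.89 to 5.66), Slc6a4 29.6 CPM (0.0672 to 0.377), the choroid plexus sum 24.6 CPM (2.01 to 2.45), Kl 0.978 CPM (0.189 to 0.269) and Cacng5 1.56 CPM (8.73 to 10.2). In the other WKY rats the leptomeningeal sum was 362 CPM in WKY 1 (others 315 to 320), Cfb was 0.403 CPM in WKY 2 (others 0) and Itgb2 7.35 CPM in WKY 3 (others 11.2 to 11.3).

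Among SHRs, SHR 4 had the lowest noradrenergic and adrenergic sum, 259 CPM (others 398 to 449), the lowest Fn1, 8.17 CPM (9.84 to 10.3), the highest Cat, 229 CPM (203 to 210), and RT1-Db1 at 0 CPM (1.20 to 1.57). Grifin was 2.88 CPM in SHR 2 (others 1.51 to 1.72), Tapbp 43.9 CPM in SHR 3 (34.3 to 37.0), Aif1l 7.32 CPM in SHR 1 (8.47 to 8.71), and in SHR 5 Ncaph was 1.17 CPM (0.335 to 0.535) and RT1-DOb 1.02 CPM (2.43 to 2.72).

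The strain difference of Terf2ip differed between the CVLM and the NTS by 0.860 on the log2 scale, in a direct test over the 27 libraries of 10 wk (edgeR quasi-likelihood adjusted p = 0.00221).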

How the results depend on the processing

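Of 93 named genes tested, 70 passed at an adjusted p under 0.05, 49 of them under every alternative and 21 not under all. Of the 158 calls, 109 were made in all 17 settings. With 10 wk fitted alone 65 genes were called higher and 65 lower, and 126 of the 158 stayed. At an adjusted p under 0.05 that fit gave 184 higher and 236 lower. Leaving out each rat gave 67 to 77 genes called higher, 72 to 79 lower, 156 to 191 higher and 170 to 210 lower at an adjusted p under 0.05. Asking for a log2 difference above 2, the study's other threshold, left 36 higher and 24 lower. With the replicate block 80 genes were called higher and 80 lower, and 154 of the 158 stayed. Beside the 7 losses and the gain of Abat given in the report, this block changed no other call among the named genes. A block of replicate number within each age, added after seeing the data, called 77 higher and 75 lower, 137 of them shared with the 158, and 184 higher and 186 lower at an adjusted p under 0.05. Under it Hba-a1, Hba-a2, Hbb and LOC103692716 did not pass, nor did C1s (adjusted p = 0.120), Cacng5 (0.246), Fmod (0.0550), Hsd11b1 (0.0869) and Rpl30 (0.0795), nor Slc6a4, Tph2, Vip, Igfbp4 and Cfb, while Abat (0.0126) and Kcne5 (0.0109) did.

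For 10 wk against the other ages, the count of 0 became 6 with DESeq2, and 2 each without the libraries of conflicting age label and, an alternative chosen after seeing the data, without those outside 10 wk whose names end in 2. For CVLM against NTS the count of 1 became 37 with DESeq2, 2 with its size factors and 7 with all libraries, and 1 to 2 with a rat left out (2 without WKY 4). For CVLM against RVLM the count of 0 became 4 with DESeq2 and 2 with all libraries, and 0 to 1 with a rat left out (1 without SHR 4). The cause was not tested.

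Over all alternatives, differences that changed sign ranged over −6.24 to 2.67 for Ttr, −4.46 to 1.62 for Slc6a4 and −2.85 to 0.41 for Tph2, each positive only without WKY 4. They ranged over −0.11 (without WKY 4) to 0.43 for Dbh, −0.106 (without SHR 3) to 0.105 for Grik1, also negative without WKY 4 (−0.0039), −0.149 to 0.0995 for Slc5a7, positive without SHR 2 (0.0196) or WKY 2, −0.127 to 0.0212 (without SHR 2) for Gad2, and −0.269 to 0.290 for Olig1, negative without SHR 2 (−0.0979), SHR 5 (−0.171), WKY 1 or WKY 4 (−0.0631). Olig1 was also negative with the replicate block (−0.0743) and with it within each age (−0.109). With 4 and 5 rats and a median SE of 0.19, small differences are not detectable here.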

Other observations

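Among the remaining called genes, named here after their values were seen, several of high level separated the strains. In SHRs Chi3l1, a chitinase-like protein of reactive astrocytes, averaged 63.2 CPM against 19.8 in WKY rats, F3, tissue factor, 58.7 against 26.2, Itm2c, a membrane protein of neurons, 155 against 52.1, and Rbbp4, a histone chaperone, 145 against 44.5. Slc11a1, a metal transporter of macrophage vesicles, averaged 7.96 against 1.72 CPM. Lower in SHRs were Reep1, which shapes the endoplasmic reticulum (99.6 against 308 CPM), Pik3r1, the regulatory subunit of phosphoinositide 3-kinase that acts below the insulin receptor (21.5 against 75.3), Cisd2, an iron-sulfur protein of organelle membranes (57.4 against 173), Dnaja3, a mitochondrial chaperone (71.1 against 177), and Pbx3, a homeodomain factor (43.9 against 115).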
